A study of Sus scrofa with 6 samples.

Results

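CD8 T cells of the neonatal pig ileum were chosen by their transcripts. A barcode was taken as one when it held at least 1000 unique molecular identifiers (UMIs, counted RNA molecules) and 500 genes, at least 2 UMIs of CD3E and CD3G, at least 1 UMI of CD8A and CD8B, no UMI of CD4, MS4A1 or PAX5, and at most 1 UMI of TOP2A and MKI67. These conditions left 732 CD8 T cells among 5615 CD3 barcodes, which are the barcodes with at least 2 UMIs of CD3E and CD3G, and among 76099 barcodes of sufficient depth. The 9 genes of the rule chose the cells, so their levels are given only as a description. No antigen-binding T cell receptor chain is among them, so CD8 T cells here may carry an alpha-beta or a gamma-delta receptor. CCL5 and CD7 were also named as markers of these cells, but no cell was chosen by them.

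RNA of single cells of the piglet (Sus scrofa) ileum was counted with the 10x Chromium droplet system. A single library was made for each of 6 ages, which were days 0, 1, 3, 7, 14 and 21 after birth. The labels give every library as ileum of male animals, while the design text of the series names the cecum. Cells of several piglets of an age were combined in 1 library, after scraping of the mucosa and its dissociation with EDTA and TrypLE, so neither the spread between piglets nor a batch of preparation can be told apart from age. No treatment or genotype distinguished the libraries, and ages are therefore compared as values without a test.

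Conventional CD8 T cells recognize peptides on MHC class I molecules. The CD8 coreceptor exists as an alpha-beta or an alpha-alpha pair. The first is typical of T cells selected in the thymus on MHC class I, and many intraepithelial lymphocytes carry the second. In the small intestine many of these cells sit between the enterocytes, held there by the integrin alpha E beta 7 and drawn there through the chemokine receptor CCR9. Their effector program consists of granule proteases and pore-forming proteins that kill target cells and of chemokines that recruit other leukocytes.

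Library totals were between 77391932 and 100348769 UMIs. The median CD8 T cell held 3638, 4442, 3800, 4158, 2990 and 2688 UMIs at days 0, 1, 3, 7, 14 and 21, against 3325, 4028, 4782, 4811, 3597 and 3096 in CD4 T cells. A barcode sequence was shared between libraries by 1 CD8 T cell, at days 14 and 21. Genes of enterocytes were present in the CD8 T cells at some ages: the 19 measured epithelial markers summed to 21.3, 27.6, 0.863, 15.4, 0.566 and 0.680 UMIs per 10000, a level taken over the summed UMIs of the cells of a class in a library, and 0, 0, 10, 3, 14 and 16 of the 19 were at 0. Barcodes with at most 100 UMIs, which hold free RNA, had 154, 93.8, 6.33, 12.1, 6.71 and 1.56 for the same list. Of the 15 measured myeloid markers, 2 reached 1 UMI per 10000 and 10 UMIs at day 1, and 0 did so at the other ages. Of the APOA1 UMIs in CD8 T cells, 1 cell held 92.1% at day 1 and 1 cell held 97.1% at day 7. The part of these cells and of free RNA in the results was not tested beyond the values given and 1 alternative. It repeated the age comparison with 10% of each sum subtracted as free RNA, and its counts are given at the end.

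The share of CD8 T cells among CD3 barcodes was 13.6% at day 0, 9.47% at day 1, 11.6% at day 3, 16.2% at day 7, 18.6% at day 14 and 16.1% at day 21. Exact Clopper-Pearson 95% intervals, which like all intervals here cover counting error only, were 12.2 to 15.2, 8.14 to 10.9, 8.69 to 15.0, 13.3 to 19.4, 15.3 to 22.2 and 12.2 to 20.6%. These shares rested on 273, 167, 49, 96, 97 and 50 CD8 T cells. The share was lowest at day 1, and the intervals of days 7, 14 and 21 overlapped.

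Among all barcodes of sufficient depth the order was different, with 2.52, 1.45, 0.431, 0.760, 0.608 and 0.362% CD8 T cells. B cells (MS4A1 without CD3E or CD3G) made up 18.4% of those barcodes at day 0 and 87.1% at day 14, so the 2 denominators describe different mixtures. CD3 barcodes that also carried MS4A1 or PAX5 were 6.49% of CD3 barcodes at day 0 and 42.8% at day 21. With the CD3 barcodes that met the MS4A1, PAX5, TOP2A and MKI67 conditions as the denominator, CD8 T cells made up 14.9% (13.3 to 16.6), 10.3% (8.86 to 11.9), 15.6% (11.8 to 20.1), 25.7% (21.3 to 30.4), 29.0% (24.2 to 34.2) and 29.9% (23.1 to 37.5). The 3 libraries from day 7 on lay above the 3 earlier ones on this scale.

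**Figure D1:**
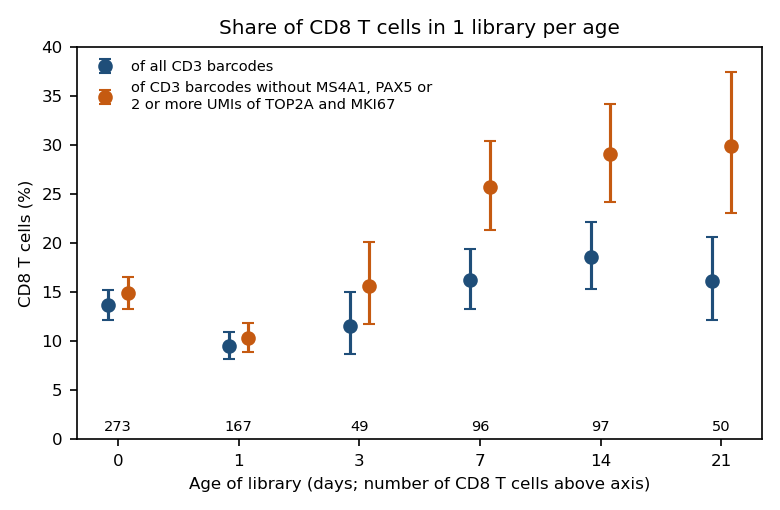
Share of CD8 T cells (percent, y axis) at each age in days (x axis, 1 library per age) among all CD3 barcodes in blue and among CD3 barcodes meeting the MS4A1, PAX5, TOP2A and MKI67 conditions in orange, with exact 95% intervals for counting error. On the orange scale the share is 25.7 to 29.9% from day 7 on and 10.3 to 15.6% before; numbers above the axis are CD8 T cells.

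The coreceptor genes chose the cells and their split is descriptive. CD8A and CD8B lie side by side on chromosome 3 of Sscrofa11.1, at 57999228 to 58029768 and 57968358 to 57986450, and encode the alpha and beta chains. CD8B was the only coreceptor gene detected in 25.3, 27.0, 12.2, 6.25, 7.22 and 8.0% of CD8 T cells, CD8A the only one in 61.5, 49.7, 73.5, 75, 76.3 and 74.0%, and both were detected in the remaining 13.2, 23.4, 14.3, 18.8, 16.5 and 18.0%. Of all coreceptor UMIs, CD8B gave 32.8% (28.2 to 37.6) at day 0, 42.9% (36.9 to 49.1) at day 1, 17.8% (10.5 to 27.3) at day 3, 20.2% (15.4 to 25.8) at day 7, 19.8% (14.6 to 25.9) at day 14 and 19.6% (12.2 to 28.9) at day 21. The shares of days 0 and 1 were above those of the 4 later libraries, although the intervals of days 0 and 21 overlapped.

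Exactly 1 coreceptor UMI was found in 67.8, 64.1, 65.3, 43.8, 50.5 and 54.0% of CD8 T cells, so a cell without CD8B may have carried it undetected, and CD8 T cells with no coreceptor UMI remain among the other CD3 barcodes. Cells with exactly 2 UMIs of CD3E and CD3G, just inside the rule, had CCL5 levels of 44.0, 3.25, 10.4, 100.4, 116.9 and 122.9 UMIs per 10000. The barcodes just outside, with 1 such UMI and all other conditions met, numbered 33, 23, 9, 2, 5 and 4 and had CCL5 levels of 29.3, 14.4, 57.7, 5.47, 225.4 and 20.7.

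CD8 T cells were set against CD4 T cells (CD4 present, CD8A and CD8B absent, other conditions the same; 495 cells) in the 6 libraries, with the library as a block and the 6 ages standing as replicates. Of 4400 genes tested with edgeR's quasi-likelihood test, 167 (3.8%) were higher and 98 (2.23%) lower in CD8 T cells at an adjusted p under 0.05. The counts were 103 and 49 without day 7, and 61 genes were lower without day 14. Likely doublets were barcodes with over 3 times the median UMIs of the CD3 barcodes of their library, or with 2 or more UMIs of epithelial, myeloid, stromal or B lineage markers. A single cell with free RNA of these markers could also meet the second condition, and the 2 cases were not told apart. Leaving these barcodes out kept 75, 86, 33, 64, 80 and 44 of 273, 167, 49, 96, 97 and 50 CD8 T cells. The counts were then 65 and 30, in a fit of the 5 libraries that kept at least 20 cells of each class. Of the cytotoxic list, 7 of 12 tested genes were higher and 0 lower (median log2 fold change 1.63). Of the natural killer receptor genes 5 of 8 were higher and 0 lower (median 2.17), and of the MHC class II genes 5 of 6 and 0 (median 1.34), beside a median of -0.01 over all genes. Against all other CD3 barcodes the cytotoxic list had 7 higher and 0 lower of 15. The natural killer list had 7 and 1 of 12 there, and the MHC class II list 0 and 4 of 9. Against those limited by the MS4A1, PAX5, TOP2A and MKI67 conditions, the cytotoxic list had 5 and 0 of 15. The natural killer list had 1 and 1 of 11 there, and the MHC class II list 0 and 0 of 7. Against those lacking CD4 and CD8 the cytotoxic list had 2 and 1 of 15, and the other lists had the same counts. Of all genes, 2.93% were higher and 3.45% lower against all other CD3 barcodes. These shares were 0.475 and 0.683% against the limited ones, and 0.179 and 0.487% against those lacking CD4 and CD8. A gene could pass the filter on low counts through 1 class alone, and the lists were chosen with earlier results of these data known, so their counts are a description.

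**Figure D2:**
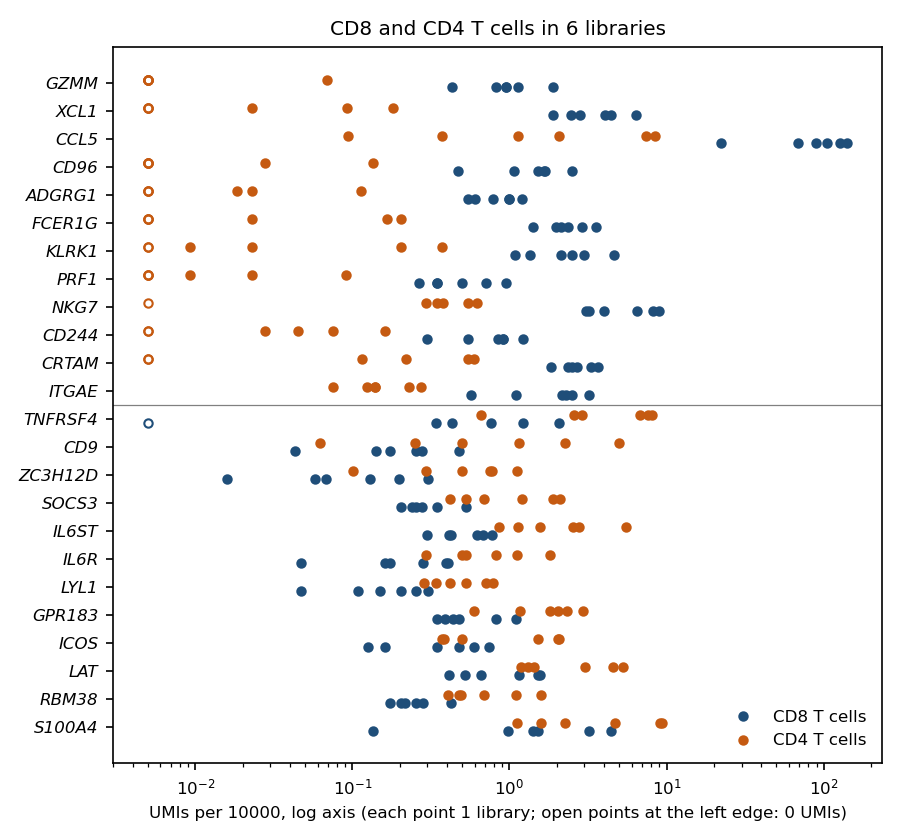
Levels of the 12 most increased genes (top, above the line) and the 12 most decreased genes (below the line) of CD8 against CD4 T cells, in UMIs per 10000 on a log axis, with 1 point per library and class and open points for 0 UMIs. For CCL5 and XCL1 the 6 blue CD8 points do not overlap the orange CD4 points, while for S100A4 and LYL1 the classes overlap across libraries.

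CCL5, a chemokine that attracts T cells and monocytes (chromosome 12, 39652731 to 39659121), was the most abundant effector transcript of CD8 T cells. Its level was 89.3 UMIs per 10000 at day 0, 22.2 at day 1, 68.8 at day 3, 104.3 at day 7, 127.3 at day 14 and 140.8 at day 21. The day 1 library was the lowest and lay apart from all others beyond counting error (95% Poisson interval 21.2 to 23.2). On library totals the 3 latest were the highest. The TMM factors, described with the age comparison, were 0.860 at day 0 and 1.09 at day 7. The order of days 0 and 7 therefore depends on the scaling. CD4 T cells of the same libraries had CCL5 levels of 7.41, 0.369, 0.0936, 8.47, 1.13 and 2.08, B cells at most 0.650, and free RNA 1.74 to 9.42.

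Across the 6 libraries CCL5 averaged 92.1 ± 42.9 in CD8 and 3.26 ± 3.71 in CD4 T cells (SD, n = 6), a log2 fold change of 5.24 (SE 0.41, edgeR adjusted p = 6.55e-08), and CD8 T cells were higher in 6 of 6 libraries. With every cell reduced to 1000 UMIs, CCL5 was found in 60.4, 24.6, 49.0, 60.4, 78.4 and 68.0% of CD8 T cells, compared with 66.3, 30.5, 51.0, 63.5, 79.4 and 70.0% before the reduction. In B cells at 1000 UMIs CCL5 was found in 1.39 to 3.57%, a class that should lack the gene.

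XCL1, the lymphotactin that attracts cross-presenting dendritic cells, had levels of 2.45, 4.45, 2.81, 4.03, 6.36 and 1.90 in CD8 T cells and of 0.181, 0.0923, 0, 0.0229, 0 and 0 in CD4 T cells. Its log2 fold change was 5.58 (SE 0.33, edgeR adjusted p = 1.08e-09). Both CCL5 and XCL1 were the called genes among 7 tested genes of the effector chemokine and cytokine list. IFNG, the macrophage-activating cytokine of CD8 T cells, had levels between 0 and 0.170 in CD8 T cells.

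CD7, an immunoglobulin-family receptor of T and NK cells that had been named as a marker, was not called between CD8 and CD4 T cells. It was called higher against all other CD3 barcodes, but not against those limited by the MS4A1, PAX5, TOP2A and MKI67 conditions or lacking CD4 and CD8. Its levels were 1.75, 2.21, 1.25, 1.41, 0.764 and 3.26 in CD8 T cells and 2.88, 2.40, 2.68, 0.435, 0.0754 and 0.139 in CD4 T cells, with CD8 T cells lower at the 3 early ages and higher at the 3 late ones. The log2 fold change was 0.17 (SE 0.35, edgeR adjusted p = 0.884).

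The granule genes differed in when they were high. GZMH and GZMB are neighbouring granzyme genes on chromosome 7, at 74723800 to 74727396 and 74705499 to 74708781, and reads that match both could not be assigned to either, which makes their split less certain. GZMH had levels of 3.51, 5.23, 1.68, 0.801, 2.72 and 4.82 in CD8 T cells, highest at day 1 and lowest at day 7. At day 21 a single cell held 39.4% of the GZMH UMIs, and the level without it was 3.02 (2.18 to 4.06), which overlapped the interval of day 0 without its own highest cell (3.03 to 3.68). GZMB, which cleaves caspases in target cells, had levels of 0.775, 1.41, 0, 5.89, 5.37 and 2.65, so that it was highest at days 7 and 14. At day 3 no GZMB UMI was found in 49 cells, where 3 UMIs would give a level of 0.130.

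GZMH was spread over many cells at days 0 and 1, and over fewer at later ages. Its UMIs came from 99 of 273 cells, 111 of 167, 14 of 49, 7 of 96, 25 of 97 and 11 of 50, and the 5 cells with the most held 17.1, 13.7, 64.1, 94.6, 49.0 and 90.1% of them. GZMB UMIs came from 12, 5, 0, 15, 16 and 4 cells, and 1 cell held 45.9% of them at day 0, 58.2% at day 1 and 69.2% at day 21. Without the highest cell of each library the GZMB levels were 0.421, 0.595, 0, 4.26, 3.62 and 0.842. The age differences of GZMB, and the GZMH levels after day 1, which came from 7 to 25 cells, therefore rest on few cells, and GZMB was below the count filter of the test against CD4 T cells.

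Of the granule genes tested against CD4 T cells, GZMM, a granzyme of innate-like and CD8 lymphocytes, had the largest difference. It stood at 1.14, 0.947, 0.432, 0.953, 0.820 and 1.90 in CD8 T cells, while CD4 T cells held 3 UMIs of it in all, at day 7. Over the pooled UMIs the ratio was 84.0 with an exact 95% interval of 28.5 to 409.5 (edgeR adjusted p = 6.30e-08). PRF1, the pore-forming perforin, was higher by 3.78 on the log2 scale (SE 0.46, edgeR adjusted p = 1.76e-05), and its CD8 levels ran from 0.266 at day 1 to 0.952 at day 21.

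NKG7, a membrane protein of cytotoxic granules, had CD8 levels of 4.0, 3.20, 3.06, 8.16, 8.96 and 6.52 against 0 to 0.618 in CD4 T cells, with a log2 fold change of 3.55 (SE 0.22, edgeR adjusted p = 1.94e-09). On library totals, the 3 libraries from day 7 on had non-overlapping and higher NKG7 intervals than the 3 earlier ones, from 5.29 upward against at most 4.37. With the TMM factors of 0.860 at day 0 and 1.13 at day 21, the intervals of days 0 and 21 overlap. GZMH was higher in CD8 T cells by 2.63 (SE 0.34), and CTSW, a cathepsin of cytotoxic cells that was evenly expressed at 7.25 to 11.7, by 2.01 (SE 0.34), with adjusted p = 3.13e-05 and 0.000756 in edgeR. The remaining called genes of the cytotoxic list were CST7 and TNFSF10, an inhibitor of granule proteases and the death ligand TRAIL.

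**Figure D3:**
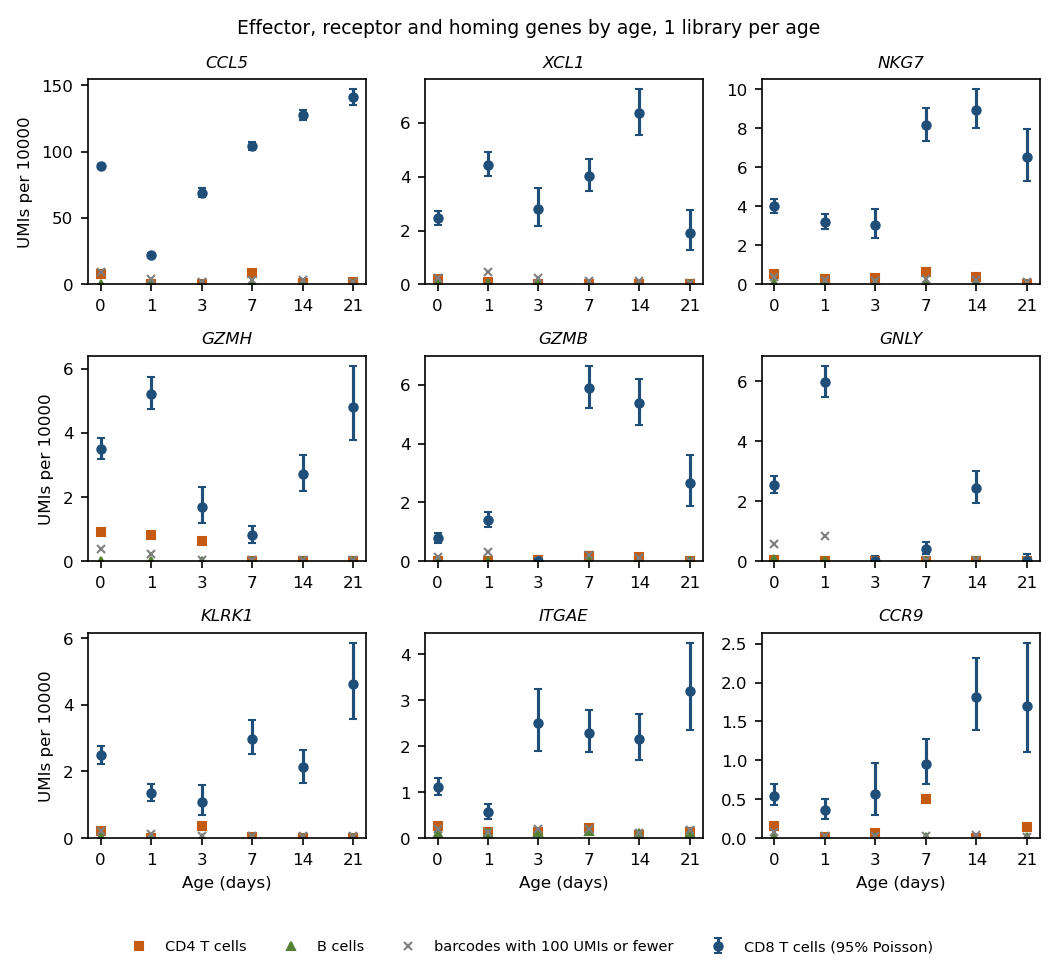
Levels of 9 effector, receptor and homing genes in UMIs per 10000 (y axis, from 0) at each age in days (x axis), with CD8 T cells as blue circles and exact 95% Poisson intervals, CD4 T cells as orange squares, B cells as green triangles and barcodes with 100 UMIs or fewer as grey crosses. CCL5 is lowest at day 1, GZMB and NKG7 are highest at days 7 and 14, and GNLY has no UMI at days 3 and 21.

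Receptors shared with natural killer cells marked CD8 against CD4 T cells. KLRK1, the activating receptor NKG2D, had CD8 levels of 2.48, 1.35, 1.08, 2.99, 2.12 and 4.62, the highest at day 21, and CD4 levels of at most 0.375. Its log2 fold change was 4.29 (SE 0.44, edgeR adjusted p = 1.77e-06). FCER1G, the signalling adaptor of Fc and natural cytotoxicity receptors, had 3.54, 1.42, 2.89, 2.36, 2.12 and 1.97, with a log2 fold change of 4.35 (SE 0.35, edgeR adjusted p = 7.25e-08), while free RNA of the same libraries held FCER1G at 0.0378 to 0.998.

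CRTAM, an adhesion receptor of activated CD8 T cells, was higher by 3.14 (SE 0.27, edgeR adjusted p = 1.97e-07). Its CD8 levels were 3.65, 3.33, 2.37, 2.69, 2.49 and 1.83, lowest at day 21. CD96 and CD244, receptors that bind nectin-family proteins and CD48, were higher by 4.74 and 3.4. At 1000 UMIs per cell, KLRK1 was found in 41.2% of the 153 CD8 T cells with FCER1G and in 11.7% of the rest, a description across cells that share a library and its depth.

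Genes of gut homing and residence were higher in CD8 than in CD4 T cells for 7 of 16 tested and lower for 2. Against other CD3 barcodes limited by the MS4A1, PAX5, TOP2A and MKI67 conditions, 3 of 22 were higher and 1 lower. Against those lacking CD4 and CD8, 2 of 20 were higher and 1 lower, beside the shares of all genes given above. ITGAE and CCR9 were called in neither of these limited comparisons. ITGAE, the alpha E integrin chain that binds E-cadherin on enterocytes, had CD8 levels of 1.11, 0.566, 2.50, 2.30, 2.15 and 3.19 and CD4 levels of 0.0754 to 0.272. The 4 libraries from day 3 on lay above the first 2 without overlap of the intervals, and ITGAE was higher in CD8 T cells by 2.97 on the log2 scale (SE 0.28, edgeR adjusted p = 5.69e-07). CCR9, the receptor for the small intestinal chemokine CCL25, had 0.546, 0.358, 0.561, 0.953, 1.81 and 1.70, highest at days 14 and 21, and its log2 fold change was 2.32 (SE 0.38, edgeR adjusted p = 0.000446).

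JAML, an adhesion molecule that binds CXADR on epithelia, had levels of 0.743, 0.855, 1.29, 1.71, 1.81 and 2.24 and so was higher at every successive age, although the intervals of neighbouring ages overlapped, as at days 7 (1.36 to 2.13) and 14 (1.39 to 2.31). Of 2040 genes considered 26 had this order and 1, the ribosomal protein gene RPL6, the opposite one. With TMM scaling, which is described with the age comparison, 9 and 7 genes had these orders, JAML and RPL6 among them. ITGA1, the collagen-binding alpha 1 integrin chain, had levels of 0.348, 0.312, 0.518, 0.541, 0.594 and 0.816. RUNX3, the transcription factor that silences CD4 in CD8 cells, had 2.16, 2.08, 4.06, 2.79, 3.03 and 3.53 and exceeded CD4 T cells by 2.54 (SE 0.19, edgeR adjusted p = 3.65e-08).

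Several receptor genes were higher in CD4 than in CD8 T cells. TNFRSF4, the costimulatory receptor OX40, had levels of 0, 0.762, 0.432, 2.06, 1.22 and 0.340 in CD8 and 0.657, 2.90, 2.56, 8.03, 7.61 and 6.79 in CD4 T cells, a log2 fold change of -2.60 (SE 0.28, edgeR adjusted p = 3.36e-06). ICOS, another costimulatory receptor, was lower by 1.47 (log2 fold change -1.47 with SE 0.22, edgeR adjusted p = 0.000132). IL6R and IL6ST, both chains of the interleukin 6 receptor, had log2 fold changes of -1.85 and -1.89. Of the activation and checkpoint list, 6 of 16 tested genes were lower and IL2RB, a chain of the receptors for interleukins 2 and 15, was higher by 1.08 (SE 0.25).

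Of the naive and recirculation list, 4 of 13 tested genes were lower in CD8 T cells and 0 were higher. CCR7, the receptor that guides T cells into lymph nodes, differed by -1.03 (SE 0.25, edgeR adjusted p = 0.0154), and S1PR1, which guides their exit, by -1.03 (SE 0.20, edgeR adjusted p = 0.00326). TCF7, a transcription factor of naive and memory T cells, was not called (log2 fold change -0.35, edgeR adjusted p = 0.207). MHC class II genes were higher than in CD4 T cells for 5 of 6 tested, among them CD74 by 1.39 (SE 0.20), whereas against all other CD3 barcodes SLA-DRA, SLA-DQA1, SLA-DQB1 and CD74 were lower. Their summed level was 17.8, 16.0, 14.6, 16.9, 35.5 and 23.8 in CD8 and 4.02 to 11.99 in CD4 T cells, against 56.5 to 117.8 in B cells and 28.8 to 99.8 in free RNA, and the part of B cell RNA in this difference was not tested.

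Against all other CD3 barcodes, 227 of 7739 genes (2.93%) were higher and 267 (3.45%) lower in CD8 T cells. The lower genes included CD79B, POU2AF1 and UBE2C, which mark B cells and dividing cells that the rule had removed from the CD8 side alone, so this comparison is shaped by the rule. The higher counts were 148, 115, 91 and 121 without days 3, 7, 14 and 21, and the lower count was 161 without day 14.

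When the other CD3 barcodes had to meet the same MS4A1, PAX5, TOP2A and MKI67 conditions, 32 of 6731 genes (0.475%) were higher and 46 (0.683%) lower. GZMM had the largest fold change, at 1.03 ± 0.488 against 0.247 ± 0.134 (SD, n = 6; log2 fold change 1.88, SE 0.18, edgeR adjusted p = 2.97e-06). It was followed by FXYD7, a regulator of the sodium pump (1.68, SE 0.23, adjusted p = 0.000185). The next was GZMH, at 3.13 ± 1.74 against 1.19 ± 1.03 (1.48, SE 0.22, adjusted p = 0.000652). Further down, CCL5 stood at 92.1 ± 42.9 against 48.5 ± 21.8 (0.82, SE 0.14, adjusted p = 0.00296). CRTAM (1.05), JAML (1.05), PLEK (0.94), PRF1 (0.86), ITGA1 (0.80), NKG7 (0.75) and XCL1 (0.69) also passed in edgeR. KLRK1 (0.63, adjusted p = 0.0667) and ITGAE (0.44, adjusted p = 0.116) did not.

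The CD3 barcodes with neither CD4 nor CD8 numbered 3373 and were compared in a fit added after the data had been seen. There 11 of 6156 genes (0.179%) were higher and 30 (0.487%) lower in CD8 T cells. GZMM stood 1.62 higher on the log2 scale (SE 0.16, edgeR adjusted p = 5.87e-07), GZMH 1.24 (SE 0.19, adjusted p = 0.000375), JAML 0.82, CRTAM 0.75 and CCL5 0.46 (adjusted p = 0.0347). NKG7 (0.42, adjusted p = 0.0675) and PRF1 (0.56, adjusted p = 0.217) no longer passed, and GPR183, a receptor for oxysterols that positions lymphocytes, was lower (-1.23, adjusted p = 8.16e-05). These barcodes may include CD8 T cells whose coreceptor was missed.

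Within the CD8 T cells, those with CD8B (262 cells) and without (470 cells) were compared in the 4 libraries with at least 20 cells of each kind, days 0, 1, 7 and 14. None of 4315 genes (0.0%) was higher and 3 (0.0695%) were lower with CD8B in edgeR, DESeq2 gave the same counts, and 242 genes had an unadjusted p under 0.05 in edgeR. Without day 0, 7 were higher and 10 lower, and without day 1, 2 were higher. The lower genes were GNLY, IFI6 and a gene without a symbol.

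GNLY, the granule protein granulysin that permeabilizes microbial membranes (chromosome 3, 59067327 to 59072034), was nearly absent from cells with CD8B. In those 4 libraries 2 UMIs were found with CD8B and 939 without, a pooled ratio of 271.9 with an exact interval of 75.05 to 2248 (edgeR adjusted p = 2.95e-07). The GNLY level of all CD8 T cells was 2.53, 5.96, 0, 0.411, 2.43 and 0, and free RNA had 0.575 and 0.828 at days 0 and 1 and at most 0.0426 later. It came from 11, 6, 0, 2, 8 and 0 cells, of which 25 lacked CD8B and 2 had it, and 1 cell held 45.3% of the UMIs at day 0 and 54.7% at day 1. The contrast rests on these 27 cells. The exact interval takes each UMI as independent, so it is too narrow for a difference between cells. GNLY also passed the filter on low counts through the cells without CD8B alone.

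The 15 cells with at least 5 GNLY UMIs were compared, as a description chosen after their values were seen, with the 705 cells without GNLY. GZMB was at 14.8 (12.6 to 17.2) against 1.51 (1.38 to 1.65) UMIs per 10000 in the pooled cells, GZMA at 2.40 against 0.199, and NKG7 at 9.34 against 4.72. CCL5 was at 77.7 in both, and CD3E was at 3.29 against 8.49. CD3G was at 4.54 (3.38 to 5.96) against 5.65 (5.39 to 5.91), with overlapping intervals, and both CD3 genes had chosen the cells. TYROBP (1.42 against 0.530) and FCER1G were also higher beyond their intervals, and SRGN, CCR7 and ITGAE were lower. These intervals cover the counting of pooled UMIs and not the spread between cells. The intervals of KLRK1, PRF1 and CD7 overlapped. The 705 cells held 3168748 UMIs in all, so the 15 cells held more UMIs per cell, and depth was not matched. Library and age were not matched either: the 15 cells were 6, 4, 1 and 4 cells of days 0, 1, 7 and 14, and the 705 came from all 6 libraries. No CD8B UMI was found among 112436 UMIs of the 15 cells, beside a CD8B level of 1.17 in the cells without GNLY. The 2 cells with both GNLY and CD8B held 1 GNLY UMI each. The cut at 5 UMIs had thus removed them, and the absence of CD8B adds nothing to the contrast above.

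IFI6, a mitochondrial protein induced by type I interferon, was lower in CD8 T cells with CD8B in all 4 libraries. It was at 3.15, 3.50, 13.2 and 29.6 with CD8B and at 5.51, 5.51, 26.2 and 61.3 without, at days 0, 1, 7 and 14, a log2 fold change of -0.82 (SE 0.10, edgeR adjusted p = 0.00464). GZMH (1.49, SE 0.49, adjusted p = 0.774), CCR7 (1.25, SE 0.31, adjusted p = 0.447) and LEF1 (1.65, SE 0.41, adjusted p = 0.447) had higher values with CD8B that did not pass in edgeR.

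CD8 T cells with CCL5 and with CCR7 were largely different cells. At 1000 UMIs per cell CCR7 was found in 4 of 398 cells with CCL5 (1.01%) and in 58 of the others (17.4%). By library the shares were 0.606 and 18.5% at day 0, 4.88 and 23.0% at day 1, 4.17 and 24.0% at day 3, 0 and 2.63% at day 7, 0 and 9.52% at day 14, and 0 and 0% at day 21. KLRK1 gave a like picture, with CCR7 in 0.763% of 131 cells with KLRK1 and 10.2% of the rest. GZMH did not: CCR7 was found in 13.6, 20.4, 28.6, 0, 0 and 0% of the 66, 54, 7, 5, 15 and 7 cells with GZMH and in 5.80, 17.7, 11.9, 1.10, 2.44 and 0% of the rest, higher with GZMH at days 0, 1 and 3 and lower at days 7 and 14. GZMH and CD8B had no common direction over the libraries: GZMH was found in 44.4, 46.2, 0, 20, 8.33 and 25% of cells with CD8B and in 21.1, 29.8, 15.6, 3.49, 16.5 and 11.9% of the others, with 36, 26, 4, 10, 12 and 8 cells with CD8B.

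Levels at each later age were set against day 0 in genes with at least 1 UMI per 10000 and 10 UMIs in either library, and a difference of at least 2-fold was counted. At day 1, 3.94% of 1270 genes were higher and 4.49% lower, at day 3 11.9 and 9.63% of 1454, at day 7 14.2 and 7.19% of 1503, at day 14 16.9 and 6.77% of 1552, and at day 21 25.8 and 8.47% of 1688. The median log2 ratio of all these genes was 0.09, 0.21, 0.41, 0.41 and 0.51. With TMM scaling between the 6 sums, which sets the trimmed mean of the log ratios equal and moved these medians to within 0.1 of 0, the split from day 3 on turned to 93 higher and 199 lower, 88 and 185, 124 and 175, and 168 and 254, from 173 and 140, 214 and 108, 263 and 105, and 435 and 143. Age differences are therefore read against these medians. A gene that passed the minimum through the later library alone had to be higher there, so the lists are counted below over the genes that passed at day 0, which in turn favours genes high at day 0, and over all measured genes without a minimum. Of the 1081 genes that passed at day 0, 1.67, 2.78, 6.20, 6.94 and 8.05% were at least 2-fold higher and 5.27, 12.95, 9.99, 9.71 and 13.2% lower at days 1, 3, 7, 14 and 21, or 18, 11, 18, 24 and 18 genes higher and 56, 174, 159, 156 and 221 lower with TMM scaling. Without a minimum, 5708, 6254, 6836, 6480 and 6126 of 20639 genes were above day 0 and 7950, 7006, 6546, 6816 and 7080 below. With TMM scaling these counts were 5730, 5429, 5271, 4816 and 4823 above and 7928, 7831, 8111, 8480 and 8383 below.

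Of the cytotoxic list, 9 genes passed at day 0, of which 1, 0, 1, 2 and 0 were at least 2-fold higher and 0, 3, 2, 0 and 2 lower at days 1, 3, 7, 14 and 21. With TMM scaling 1 was higher at day 1 and 0 later, and the lower counts were the same. Of the gut residence list 8 passed at day 0, and 1 of them was higher and 4 lower at day 21 with either scaling. Of the 24 measured genes of that list, 17 were above and 5 below day 0 at day 21 without a minimum. The naive and recirculation list had 5 such genes, of which 0 were higher and 2 lower at day 21, also with either scaling.

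Among the genes that could be named at day 21, EOMES, a T-box factor of effector and memory CD8 T cells, had the largest ratio to day 0. Its levels were 0.0316, 0.0115, 0.173, 0.260, 0.198 and 2.92, so that day 21 stood alone, with 43 UMIs from 15 of 50 cells. The ratio to day 0 was 92.4, with an exact interval of 33.6 to 354.4 that does not allow for the choice of the largest ratio. CACNA1D, a calcium channel gene, followed with 16 UMIs from 11 cells at day 21 and 2 UMIs at day 0. The others of the 10 highest were LAG3, ISG20, GBP1, F2R, GBP2, GPR55, SEMA7A and BATF, among which ISG20, GBP1 and GBP2 are induced by interferons. All 10 passed the minimum through day 21 alone, where they had to be higher, so their direction was fixed by the selection.

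LAG3 and PDCD1, inhibitory receptors of activated T cells, were both higher from day 7 on. LAG3 had levels of 0.0237, 0.150, 0.389, 1.95, 1.47 and 1.29 and PDCD1 of 0.0237, 0.0462, 0.216, 1.43, 1.27 and 0.883. On library totals the 3 late libraries lay above the 3 early ones without overlap for LAG3, and CD4 T cells had 3.62 to 5.96 in the late libraries. With the TMM factors of 0.995 at day 3 and 1.13 at day 21, the LAG3 intervals of these 2 libraries overlap in CD8 T cells. PDCD1 was lower in CD8 than CD4 T cells (log2 fold change -2.02, SE 0.27, edgeR adjusted p = 5.47e-05), in 5 of 6 libraries. LAG3 and PDCD1 themselves passed the minimum level in the later libraries alone. Of the activation and checkpoint list 6 genes passed at day 0, of which 0 were at least 2-fold higher at any later age and 0, 2, 2, 1 and 2 lower at days 1, 3, 7, 14 and 21. Of the 26 measured genes of the list, 17, 18, 18, 18 and 17 were above day 0 without a minimum.

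IL7R, the receptor of the survival cytokine interleukin 7, was among the 10 genes named as furthest below day 0 at day 21. It had levels of 2.49, 3.65, 3.19, 0.693, 2.06 and 0.272, lowest at days 7 and 21. NR4A2, an orphan nuclear receptor induced early by activation, had 5.41, 3.60, 1.08, 2.66, 2.54 and 0.544, and TSC22D3 and FKBP5, glucocorticoid-induced genes, were lower by log2 ratios of -3.19 and -2.71. PLK3, CREM, CD69, KIT and RGS1 were the further ones, and GNLY had 0 UMIs at day 21. IL7R, NR4A2, PLK3, KIT and GNLY were below the minimum at day 21, with 1 UMI of PLK3 and 3 of KIT. These genes passed through day 0 alone, where they had to be higher, so their direction was fixed by the selection. Since GNLY came from 11 of 273 cells at day 0, and 0 of 50 cells allows a share of cells with a UMI of up to 6.0% (3 cells), a difference from day 0 in the share of cells with a GNLY UMI was not detectable. CCR7 was at 0.640, 1.71, 1.34, 0.282, 0.509 and 0, and S1PR1 at 0.569, 1.24, 0.863, 0.303, 0.368 and 0.136. At day 21 no CCR7 UMI was found in 50 cells, where 3 UMIs would give 0.204. CCR7 was also lower at later ages in B cells, at 1.78, 4.08, 0.576, 0.333, 0.135 and 0.0609.

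**Figure D4:**
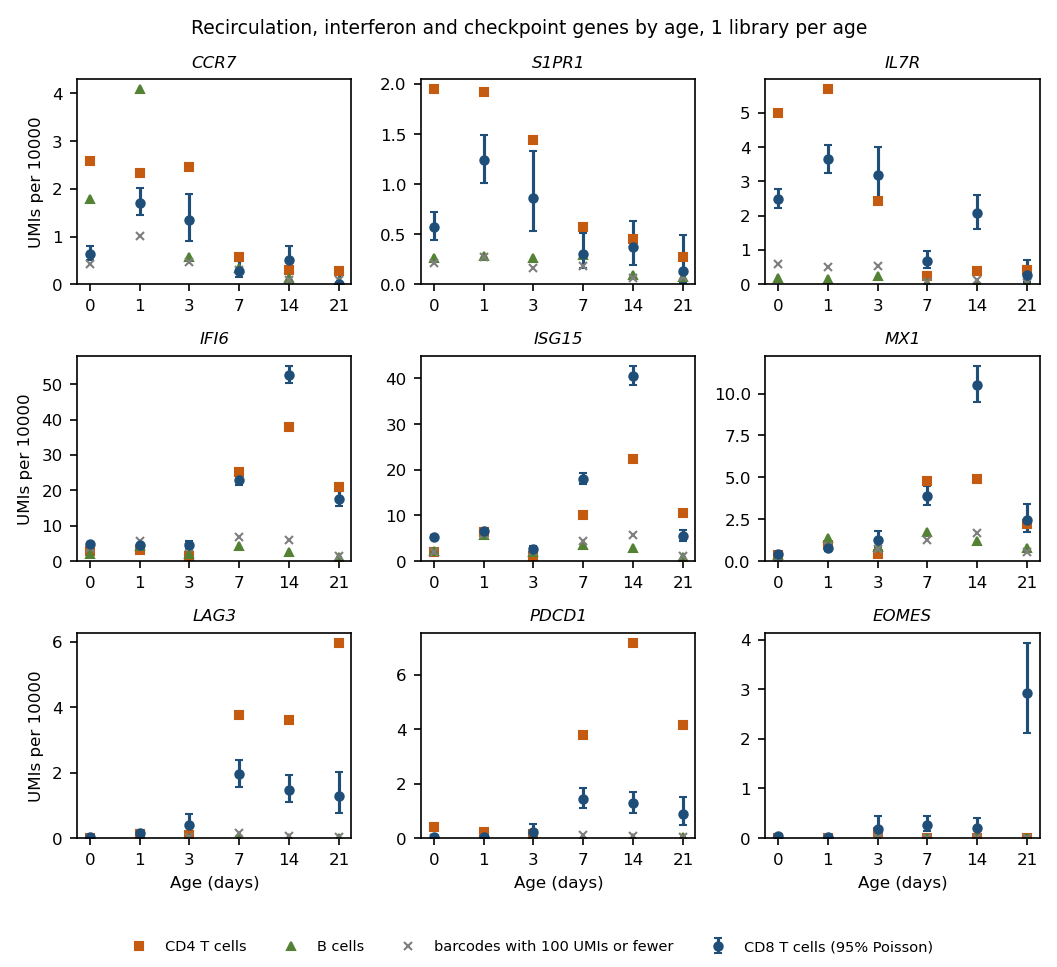
Levels of 9 recirculation, interferon-induced, inhibitory receptor and T-box genes in UMIs per 10000 (y axis, from 0) at each age in days (x axis), with the same symbols and 95% Poisson intervals as the plot of effector genes. IFI6, ISG15 and MX1 of CD8 T cells are highest at day 14, and EOMES stands apart at day 21 with 2.92.

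Interferon-stimulated genes, whose products restrict viruses, peaked at day 14 in CD8 T cells. Their summed level was 16.3, 26.0, 21.2, 66.3, 155.3 and 54.98 UMIs per 10000, and day 14 exceeded every other library. B cells of the same libraries had 8.16, 21.2, 10.3, 17.3, 12.6 and 8.18 and free RNA 9.25, 23.2, 12.2, 19.0, 20.4 and 7.78, without a maximum at day 14 in B cells. CD4 T cells had 10.2, 22.1, 9.58, 59.2, 87.8 and 56.5, and CD3 barcodes with neither coreceptor 15.6, 27.9, 21.0, 59.7, 150.6 and 46.0, so the late elevation was shared by the T cells. Transcripts of the mitochondrial genome, a sign of cell quality, were lowest in the same library, at 716.0, 505.2, 722.7, 523.6, 462.6 and 527.7 UMIs per 10000 in CD8 T cells. Of these genes 0 of 12 were at least 2-fold above day 0 at day 14 and 2 below, or 9 below with TMM scaling, with a median log2 ratio of -0.80. At day 21, 4 were below, or 8 with TMM scaling. B cells also had their lowest mitochondrial level at day 14 (488.1, against 567.9 to 775.9 at the other ages), and the part of cell quality in the interferon result was not tested.

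ISG15, a ubiquitin-like modifier, had CD8 levels of 5.27, 6.69, 2.59, 18.0, 40.6 and 5.50. IFI6 had 4.74, 4.46, 4.62, 22.8, 52.7 and 17.5, a day 14 to day 0 ratio of 11.11 (10.1 to 12.2), and MX1, a dynamin-like antiviral GTPase, had 0.427, 0.808, 1.25, 3.90, 10.5 and 2.45, a ratio of 24.6 (18.5 to 33.4). GBP1, a guanylate-binding protein induced by interferon gamma, was instead highest at day 21, at 0.395, 4.26, 2.81, 2.53, 7.58 and 12.2.

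Of the 28 measured genes of the interferon list, 23, 20, 27, 28 and 22 were above day 0 and 4, 7, 1, 0 and 5 below at days 1, 3, 7, 14 and 21 without a minimum level. With TMM scaling 23, 18, 26, 28 and 21 were above. At day 14, 14 of the 18 genes that passed the minimum did so at day 14 alone. Of the 4 genes that passed at day 0, 1, 0, 3, 4 and 2 were at least 2-fold higher and 0, 2, 0, 0 and 0 lower, and with TMM scaling 1 was higher at day 21. The elevation was uneven among cells: at 1000 UMIs per cell the day 14 cells held a median of 8 UMIs of the list, with quartiles of 2 and 27 and a highest cell of 74, against medians of 1, 2, 1, 3 and 4 at days 0, 1, 3, 7 and 21. Against CD4 T cells, 4 of 16 tested genes of the list were higher and 0 lower.

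MHC class I and peptide loading genes summed to 65.2, 105.0, 70.6, 109.4, 147.5 and 131.6 in CD8 T cells and to 31.3 to 66.6 in B cells, while CD4 T cells had 72.2 to 151.0 with their highest sum at day 21. Of the 9 genes of this list that passed at day 0, 3, 0, 5, 7 and 4 were at least 2-fold higher at days 1, 3, 7, 14 and 21 and 0 lower, or 3, 0, 1, 3 and 1 higher with TMM scaling. Of the T cell receptor list 7 genes passed at day 0, and 4 were higher and 1 lower at day 21, or 1 and 1 with TMM scaling, beside the 8.05 and 13.2% of all genes given above. LCK, the kinase that phosphorylates CD3 chains, had levels of 1.68, 1.94, 1.94, 4.20, 4.02 and 4.28.

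Immediate early genes, transcription factors induced within minutes of stimulation or cell stress, summed to 114.4, 84.5, 37.3, 60.8, 90.8 and 33.1 in CD8 T cells. All 16 genes of the list that passed the minimum did so at day 0, where the sum was highest, and of these 0 were at least 2-fold above day 0 at any later age and 2, 11, 9, 4 and 13 were below at days 1, 3, 7, 14 and 21, or 2, 12, 10, 6 and 15 with TMM scaling. Of the 20 measured genes, 16, 18, 19, 17 and 20 were below day 0 without a minimum. B cells (101.2, 86.2, 49.2, 64.4, 33.8 and 21.1) and free RNA (90.7, 72.0, 65.0, 47.0, 31.9 and 24.95) also had their lowest sums at day 21, and whether the handling of the tissue differed between libraries was not tested. Heat shock chaperones, which fold proteins under stress, were highest in CD8 T cells at day 14, at 94.6, 86.2, 60.3, 111.3, 200.1 and 62.9, while B cells had 64.5 to 96.6. CD4 T cells also had their highest heat shock sum at day 14, at 213.6.

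**Figure D5:**
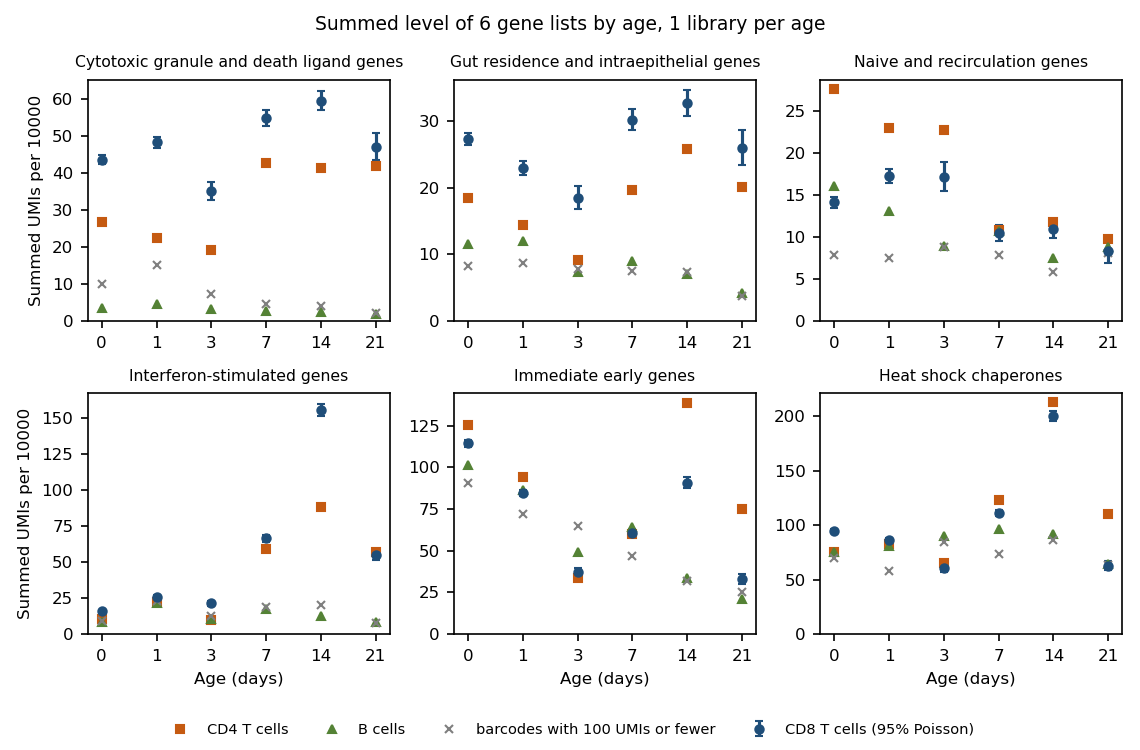
Summed levels of 6 gene lists in UMIs per 10000 (y axis, from 0) at each age in days (x axis), with the same symbols as the plots of single genes and 95% Poisson intervals on the CD8 sums. Interferon-stimulated genes and heat shock chaperones of CD8 T cells are highest at day 14 (155.3 and 200.1), where immediate early genes are at 90.8.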

How the data were processed

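The 6 ileum libraries were analysed. Per the submitters' processing notes, the authors aligned reads to Sscrofa11.1 with Cell Ranger 3.1.0 and STAR. They deposited matrices of unnormalised UMI counts for 20648 genes. The labels give the kit as version 3 chemistry, while the methods give an earlier version. Positions came from the RefSeq table of the same assembly.

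Barcodes were classed by the stated conditions. A level is UMIs per 10000, summed over the cells of a class in a library. Doublets were not removed in the reported values. An alternative left out barcodes above 3 times the median UMIs of CD3 barcodes of their library, or with 2 or more UMIs of epithelial, myeloid, stromal or B lineage markers. Class contrasts used counts summed per library and class, TMM, a filter on low counts, edgeR 4.0.16 quasi-likelihood tests with the library as a block and Benjamini-Hochberg adjustment (R 4.3.3), and DESeq2 1.42.0 as an alternative. The per-cell marker test of the study was not followed, since cells are not replicates. With the library as a block, the p-values set the mean class difference against how much that difference varied between libraries of different ages. Ages were compared by exact Poisson intervals (scipy 1.17.1). Scripts were tested on simulated data.

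Members and gene lists were chosen with earlier results of these data known. Genes named were those of the rule, of the lists, the 12 per direction with the largest called fold change, a level of at least 0.5 in the higher class and the same direction in every library, and for ages the 10 per direction with the largest ratio at day 21 and a level at least 2 times that of free RNA. RPL6 and the GNLY-positive cells were singled out, and levels without the highest cell, age orders with TMM scaling and list counts over genes passing at day 0 or without a minimum level were added, after the values were seen. No sequence was used here.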

Additional observations from a re-analysis of the deposited data

How the results depend on the processing

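Shares of CD8 T cells among CD3 barcodes depended on the coreceptor threshold. With 2 UMIs of CD8A and CD8B they were 4.40, 3.4, 4.02, 9.11, 9.20 and 7.40% at days 0, 1, 3, 7, 14 and 21, and with all conditions read at 1000 UMIs per barcode 6.54, 5.04, 5.30, 10.7 and 14.8% at days 0 to 14. They were 15.6, 25.7, 29.0 and 29.9% from day 3 on with the denominator limited by the MS4A1, PAX5, TOP2A and MKI67 conditions, and 20.7, 25.3 and 25.3% from day 7 on without likely doublets. Against other CD3 barcodes, the higher and lower counts of 227 and 267 became 24 and 81 with 2 coreceptor UMIs, 31 and 43 without likely doublets, 22 and 34 at 1000 UMIs per barcode, 2 and 7 with no library block, 32 and 46 with the restricted others, and 11 and 30 with barcodes lacking CD4 and CD8. DESeq2 gave 172 lower and no filter 638 lower. Leaving out a library gave 91 to 212 higher and 161 to 328 lower. Against CD4 T cells, 167 and 98 became 61 and 48 with 2 coreceptor UMIs, 65 and 30 without likely doublets, 34 and 21 at 1000 UMIs per barcode, 317 and 180 with no filter, and 60 and 8 with no library block, DESeq2 gave 59 lower, and leaving out a library gave 103 to 159 higher and 49 to 82 lower. For CD8B, 0 higher and 3 lower in 4 libraries became 1 higher with 2 coreceptor UMIs, where 2 libraries were left. They became 2 and 6 without likely doublets, where 3 libraries were left. The counts were 19 and 23 with no filter, 5 lower with 3 UMIs of CD3E and CD3G and 0 lower with no library block. Leaving out a library gave 0 to 7 higher and 2 to 10 lower. With a minimum level of 0.5, 228, 760, 670, 743 and 1009 genes differed at least 2-fold from day 0 at days 1, 3, 7, 14 and 21. With 10% of each sum subtracted as free RNA, 58, 210, 249, 276 and 446 genes were at least 2-fold higher at these ages. The lower counts were then 69, 153, 107, 105 and 145. Fewer cells or UMIs entered the fits with 2 coreceptor UMIs, without likely doublets and at 1000 UMIs. Libraries with fewer than 20 cells of a class also dropped out of some of these fits. With 2 coreceptor UMIs, 5 of 6 libraries entered the fits against other CD3 barcodes and against CD4 T cells. Without likely doublets, 5 of 6 entered the fit against CD4 T cells. The cause of the other changes was not tested.

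Of 3559 values of single genes under alternatives, 3119 kept their direction and side of the threshold or moved by less than their error. Of the rest, 110 lost significance, 8 gained it, 317 moved and 5 turned. A gene that fell below the count filter or minimum level under an alternative was not counted there. At 1000 UMIs per barcode, for example, 985 genes were tested against CD4 T cells, compared with 4400 in the main fit. KIF11 turned to 0.023 against the restricted others, SPC24 to 0.064 and TPX2 to 0.19 against barcodes lacking CD4 and CD8, CCL5 to 0.50 in the CD8B contrast and GNLY to -0.10 at day 1 against day 0, both without likely doublets. No paired analysis was possible because each age has 1 library and the labels carry no shared replicate numbers; the library block pairs the classes within each library instead.

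With 49 and 50 CD8 T cells at days 3 and 21, 3 UMIs correspond to levels of 0.130 and 0.204, and differences below these were not detectable there. Many cells carry 1 coreceptor UMI, so CD8 T cells without one were missed, and with 1 library per age the effects of age, piglet and preparation cannot be told apart.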
